A study of Mus musculus with 9 samples.

Results

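The genes described here are those whose symbols name subunits of the oxidative phosphorylation system: symbols that begin with Nduf (complex I), Cox followed by a digit from 4 to 8 (complex IV), Uqcr (complex III) or Atp5 (ATP synthase), and the genes Sdha to Sdhd (complex II). Of the 18193 genes on the array with a probe set of their own, 90 were members, and 83 of them were bright enough to be tested. The 90 comprised 34 subunits of complex I, 8 complex I assembly factors (Ndufaf genes, which share the name but are not part of the finished complex), 4 subunits of complex II, 8 of complex III, 19 of complex IV and 17 of ATP synthase. Ndufa4 and Ndufa4l2 were counted with complex IV, where the Ndufa4 protein is now placed. The members were chosen by a rule on names that uses no level, though earlier results of these data were known.

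Oxidative phosphorylation makes most of the ATP of a resting cell. Complexes I and II pass electrons from NADH and succinate to coenzyme Q, complex III passes them to cytochrome c, and complex IV passes them to oxygen. Complexes I, III and IV pump protons across the inner mitochondrial membrane, and ATP synthase uses the return flow of protons to make ATP. All members are nuclear genes. Most subunits are made from the same gene in all tissues, while a few complex IV subunits have alternative isoforms, such as those of heart and skeletal muscle.

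Messenger RNA was measured on 9 Affymetrix arrays, with no treatment, in cells sorted from untreated BALB/c mice of 6 to 8 weeks. The cell types were conventional dendritic cells (CDC), which present antigen to T cells, natural killer cells (NK), which kill infected and transformed cells, and interferon-producing killer dendritic cells (IKDC), described as having traits of both. Spleen gave 2 arrays for each cell type and lymph node gave 1, so that there were 3 arrays per cell type. The sort gates, the number of mice behind an array and whether mice were pooled are not stated in the labels. The p-values measure the spread between these arrays only. The 2 spleen arrays of each cell type came from mice of different sex by 2 genes given below (Xist and Eif2s3y), so this spread includes the difference between those mice.

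Levels below are log2 normalized intensities. A level compares arrays for 1 gene and cannot be compared between genes, since probe sets differ in brightness. A difference of 1 on this scale is a 2-fold change, and differences are given ± the standard error (SE) of limma's fit. A gene was called changed when its p-value, adjusted with the Benjamini-Hochberg procedure over all 10916 tested genes, was under 0.05. In bulk RNA, fewer cells that express a gene and less RNA per cell cannot be told apart.

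The labels were borne out by most markers, with exceptions that touch the comparisons. Ncr1, which encodes the NK receptor NKp46, read 10.97 to 12.17 on the NK and IKDC arrays and 5.06 to 6.22 on the CDC arrays. Zbtb46, which encodes a zinc finger protein of the conventional dendritic lineage, read 8.63 to 8.86 in CDC and 4.86 to 6.20 elsewhere. Spleen NK array 1 carried more signal of the dendritic cell genes Itgax (11.32) and H2-Aa (10.89) than spleen NK array 2 (7.27 and 6.62). The log2 summed level of 6 conventional dendritic cell markers was 13.50 to 14.13 in CDC. It was 12.65 and 12.18 in spleen IKDC and 12.62 in lymph node IKDC, against 12.19, 8.75 and 10.35 in NK in the same order. The lymph node IKDC array carried Flt3 at 8.69, against 5.22 to 6.13 on the other NK and IKDC arrays. Erythroid and platelet markers had a log2 summed level of 10.48 on spleen NK array 2 and 7.75 to 8.30 on the others. The log2 summed level of T cell markers was 10.57 on lymph node NK and 10.81 on lymph node IKDC. On the others it was 8.76 to 10.21. Median intensity was lowest on spleen IKDC array 2, at 23.4, and reached 41.3 on the brightest array.

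Few oxidative phosphorylation genes were called between the cell types, as given below. Over the 9 arrays, the median member spanned a range of 1.23 from its lowest to its highest level, and the median tested gene spanned 1.42. Such a range holds differences of organ and replicate as well as of cell type. Members and all tested genes were not matched for brightness. The range was under 1 in 34 of the 83 members (41.0%) and in 24.9% of all tested genes. Complex II was the steadiest class, with a median range of 0.76 over its 4 genes, and complex I the widest of the subunit classes, with 1.31 over 33 genes. Single members stood apart from this. Cox6a2 spanned 5.22, Ndufb1 3.66, Ndufaf6 2.71 and Cox8a 2.55, while Ndufs3, a core subunit of complex I, spanned only 0.44 and Atp5pb, a stalk subunit of ATP synthase, 0.39. These 6 were picked for their ranges, Ndufs3 and Atp5pb after their values were seen.

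**Figure D1:**
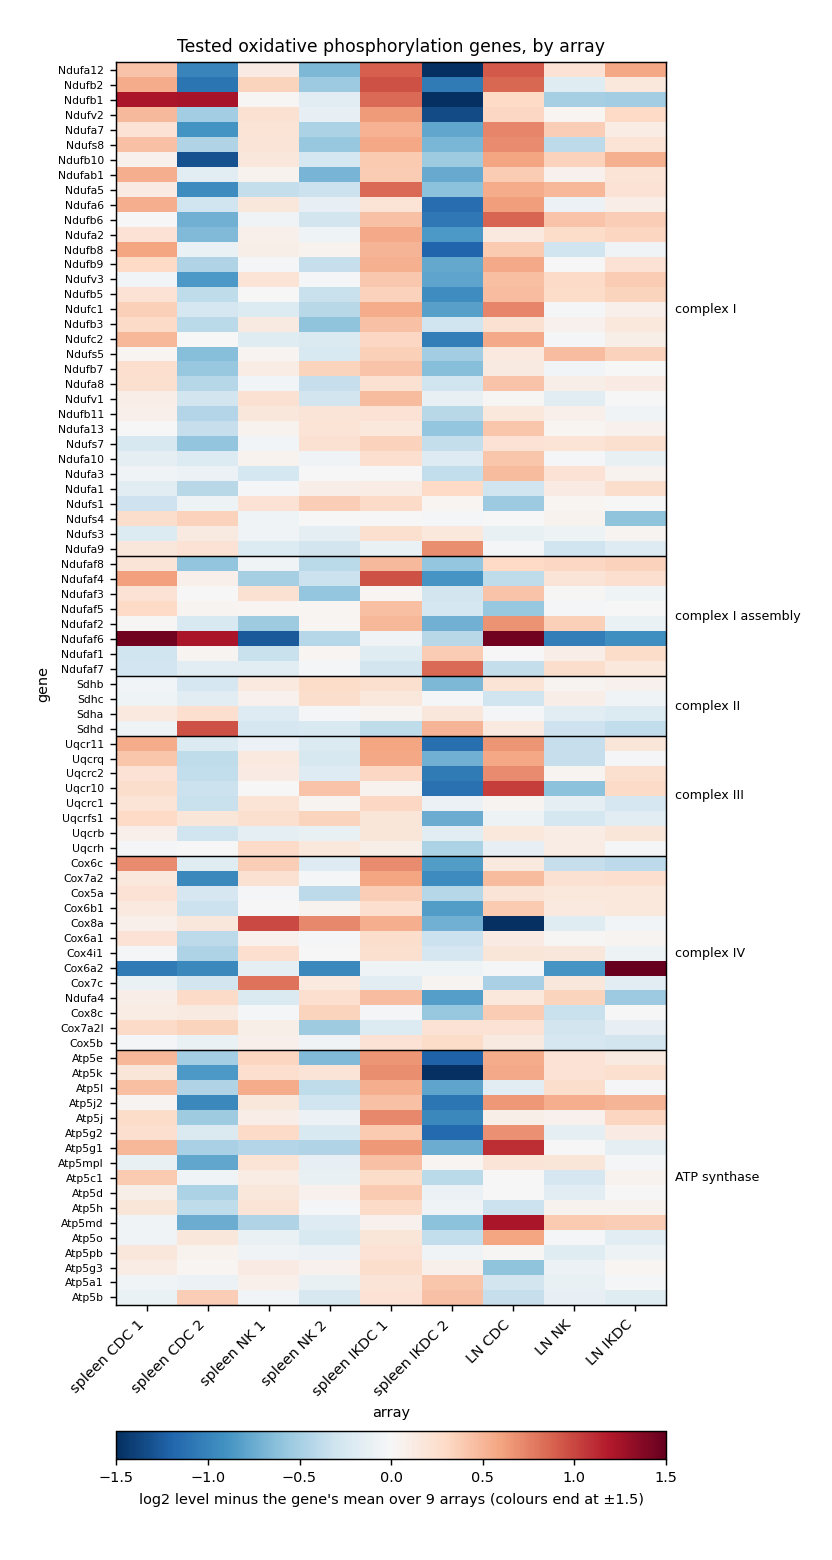
Each row is 1 of the 83 tested members and each column 1 of the 9 arrays (LN, lymph node). Colour gives the log2 level minus that gene's mean over the 9 arrays, red for higher and blue for lower, with colours ending at ±1.5, and rows are ordered within each class by the difference between spleen arrays 2 and 1. Most complex I rows are blue on spleen CDC array 2 and spleen IKDC array 2 and red on spleen IKDC array 1, while Ndufaf6 is red only in CDC and Cox6a2 is darkest on the lymph node IKDC array.

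The remaining 7 members were too dim to test, since their mean lay below the filter level of 5.31. They were mainly tissue-restricted isoforms, but not all alternative isoforms were dim. Cox6a2 (below) and Cox8c were tested, and Cox8c had intensities of 167 to 311 before normalization. Cox4i2, the lung isoform of subunit 4, read 4.32 to 6.15. The heart and muscle isoforms Cox7a1 and Cox8b read 3.63 to 5.07 and 2.93 to 3.61, the testis isoforms Cox6b2 and Cox7b2 3.04 to 5.37 and 2.91 to 4.44, and Ndufa4l2, a hypoxia-induced relative of Ndufa4, 3.75 to 4.29. The ubiquitous counterparts of the isoform pairs were well above the filter level in all cell types. Cox4i1 read 11.13 to 11.85, Cox6b1 11.18 to 12.41, Cox7a2 10.92 to 12.48, and Cox6a1 11.91 to 12.58. The seventh dim member, Ndufb4, read 4.40 to 5.72 in the probe set that names it alone, whereas a probe set shared with its copies Ndufb4b and Ndufb4c read 8.74 to 10.53.

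In spleen, NK and CDC were compared first, to ask how the respiratory genes of a lymphocyte and of a dendritic cell differ. Of the 83 members, 0 were called higher and 1 was called lower in NK, where limma called 6.54% of all tested genes higher and 6.97% lower, 13.5% in all. With the replicate number as a block, calls over all genes went from 1475 to 2314, and 1 member was called. The median member difference was 0.05 and the median of all tested genes 0.06. The median size of a difference, whatever its sign, was 0.19 over members and 0.44 over all tested genes. More than 2-fold differences were found in 2.41% of members and in 21.7% of all genes. The precision was not better for members, whose median SE was 0.38 against 0.35 for all genes.

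The only member called was Ndufaf6, a complex I assembly factor. It read 7.85 and 7.62 on the spleen CDC arrays and 7.85 on the lymph node CDC array. In NK it read 5.14 and 5.97 in spleen and 5.37 in lymph node, and in IKDC 6.35, 5.98 and 5.48. All 6 NK and IKDC arrays thus lay below all 3 CDC arrays, and several were close to the filter level of 5.31. In spleen it was 4.53-fold lower in NK than in CDC (-2.18 ± 0.38, adjusted p = 0.0134 by limma). The call was lost when spleen CDC array 1 (adjusted p = 0.0986), spleen CDC array 2 (0.0897) or spleen NK array 1 (0.0769) was left out, with differences of -2.07, -2.29 and -1.76. In spleen IKDC the difference from CDC was -1.57 ± 0.38 and missed the threshold (adjusted p = 0.0519), and it passed with the replicate number as a block (adjusted p = 0.0335). Over both organs Ndufaf6 fell in NK (-2.28 ± 0.31, adjusted p = 0.000795) and in IKDC (-1.84 ± 0.31, adjusted p = 0.00347). Between IKDC and NK it differed by 0.44 ± 0.31 over both organs (adjusted p = 0.806). Macrophage markers were also high in CDC, with a log2 summed level over 6 markers of 12.95 to 13.83 in CDC, 9.12 to 11.29 in NK and 10.29 to 11.76 in IKDC, and their part in the Ndufaf6 difference was not tested.

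**Figure D2:**
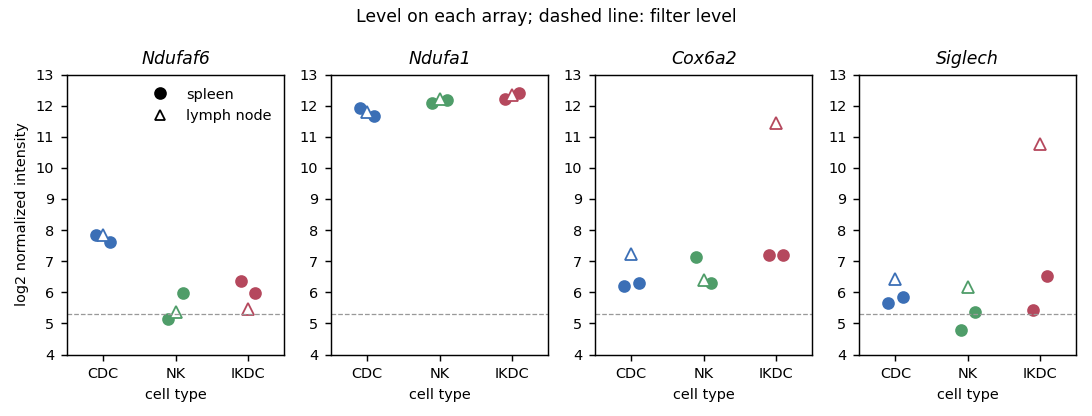
Each panel gives the log2 normalized intensity of 1 gene on the 9 arrays, by cell type, with filled circles for the 2 spleen arrays, open triangles for the lymph node array and a dashed line at the filter level of 5.31. Ndufaf6 is highest on the 3 CDC arrays, Ndufa1 varies within 0.71, and Cox6a2 and the plasmacytoid dendritic cell marker Siglech are both highest on the lymph node IKDC array.

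The other complex I assembly factors did not follow Ndufaf6. Ndufaf1, which acts in the membrane arm, read 7.50, 7.85 and 7.79 in CDC, 7.47, 7.83 and 7.91 in NK, and 7.62, 8.18 and 8.08 in IKDC (spleen arrays 1 and 2, then lymph node). Ndufaf4 read 9.24, 8.70 and 8.25 in CDC, 8.13, 8.30 and 8.82 in NK, and 9.58, 7.74 and 8.87 in IKDC. Its spleen difference between NK and CDC, -0.75 ± 0.58, was not beyond the spread of the arrays (adjusted p = 0.501 by limma). Of the 8 assembly factors, 7 had a lower mean in spleen NK than in spleen CDC, with a median difference of -0.15, and only Ndufaf6 was called.

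Among the 33 tested complex I subunits, 0 were called between spleen NK and CDC, with 18 higher and 15 lower and a median of 0.06. Ndufs1, the large iron-sulfur subunit of the electron input arm, read 9.31, 9.46 and 9.12 in NK against 8.78, 9.02 and 8.54 in CDC. All its NK and IKDC arrays lay above its CDC arrays, but no comparison called it. Ndufv1, which binds NADH, read 9.73 to 10.23 in CDC, NK and lymph node IKDC and 10.47 and 9.89 in spleen IKDC. Ndufa9, an accessory subunit near the coenzyme Q site, was lower in NK (9.94, 9.88 and 9.85) than in CDC (10.32, 10.36 and 10.13) without overlap, again without a call. Ndufb8 spanned 9.37 to 11.15 and Ndufab1, the acyl carrier protein, 7.79 to 9.09. Ndufb1 was lower than in spleen CDC by a difference of -1.31 ± 0.97 in NK, next to Ndufaf6, and of -2.02 ± 0.97 in IKDC, the lowest member there, but its spleen IKDC arrays read 6.52 and 3.24, and neither difference was called (adjusted p = 0.477 and 0.282 by limma).

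Complexes II and III showed no call in any cell type comparison. Sdha, the flavoprotein that oxidises succinate, read 10.60, 10.71 and 10.44 in CDC, 10.27, 10.43 and 10.29 in NK and 10.50, 10.62 and 10.26 in IKDC. Sdhc, a membrane anchor, was higher in NK (8.68, 8.88 and 8.72) than in CDC (8.56, 8.46 and 8.32), with a spleen difference of 0.27 ± 0.24 (adjusted p = 0.573 by limma). The iron-sulfur subunit Sdhb spanned 9.92 to 10.87, and the other anchor, Sdhd, 8.69 to 10.02. In complex III, the core subunits Uqcrc1 and Uqcrc2 spanned 9.69 to 10.33 and 9.78 to 11.55. The Rieske iron-sulfur protein Uqcrfs1 read 10.39 to 10.54 on the spleen arrays of CDC and NK and on spleen IKDC array 1, and 9.46 on spleen IKDC array 2. Uqcrb spanned 12.26 to 12.73.

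In complex IV no subunit was called between cell types. Cox5a spanned 11.75 to 12.55, Cox5b 11.91 to 12.46 and Ndufa4 8.79 to 10.08. Cox7a2l, a factor that joins complexes III and IV, was lower in NK (11.61, 11.00 and 11.25) and in IKDC (11.32, 11.74 and 11.40) than in CDC (11.82, 11.86 and 11.75), without overlap and without a call. Cox7c was the reverse, at 8.67, 8.01 and 8.03 in NK and 7.77, 7.59 and 7.38 in CDC, and its spleen difference of 0.66 ± 0.31 was not called (adjusted p = 0.244 by limma). Cox8a differed most upwards in spleen NK (0.73 ± 0.42, adjusted p = 0.351).

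In ATP synthase the alpha and beta subunits of the catalytic head varied little. Atp5a1, the alpha subunit, spanned 11.33 to 12.02 and Atp5b, the beta subunit, 11.10 to 11.90. Atp5c1, the gamma subunit that forms the shaft, spanned 11.64 to 12.43, and Atp5o of the peripheral stalk 9.73 to 10.70. Of the 17 ATP synthase genes, 11 were higher and 6 lower in spleen NK than in spleen CDC, with a median of 0.05, and 0 were called.

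Spleen IKDC were also compared with both other cell types. Against CDC, limma called 0 of 83 members and 10.3% of all tested genes, 1124 in all. With the replicate number as a block it called 1 member, Ndufaf6, and 1884 genes. At an unadjusted p under 0.05 there were 3 members and 2566 of all genes. The median member difference was -0.02 and the median size 0.21, against 0.43 for all genes. The largest after Ndufb1 and Ndufaf6 were Ndufc2 (-0.61 ± 0.44) on the low side, and Cox6a2 (0.94 ± 0.34), Atp5mpl (0.68 ± 0.32) and Ndufb10 (0.55 ± 0.53) on the high side, with adjusted p from 0.153 to 0.610. Against NK, limma called 0 members and 0% of all genes. Here 0 members and 600 of all genes had an unadjusted p under 0.05. All 8 assembly factors had a higher mean in spleen IKDC than in NK, with a median of 0.22, and 7 of 8 complex III genes a lower one, with a median of -0.23. Of all tested genes, 48.7% were higher in IKDC. By the class median of deviations from each gene's mean, neither direction held in both array pairs. Assembly factors had 0.24 in IKDC and -0.25 in NK on arrays 1, and -0.35 and -0.17 on arrays 2. Complex III had 0.25 and 0.14 on arrays 1, and -0.73 and -0.03 on arrays 2. The largest member differences were Ndufaf6 (0.61), Ndufa9 (0.54) and Cox6a2 (0.48) upwards and Cox8a (-0.94), Uqcr10 (-0.75) and Ndufb1 (-0.71) downwards, none called.

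With the lymph node arrays added and organ as a term, limma called 22% of all genes between NK and CDC (11.4% higher and 10.7% lower) and 17.4% between IKDC and CDC (9.19% higher and 8.16% lower). Among members the calls were Ndufaf6, lower in both, and Ndufa1, higher in IKDC, so 1 and 2 of 83. Between IKDC and NK it called 0 members and 0% of all genes, where 1 member and 757 of all genes had an unadjusted p under 0.05. Comparing the arrays directly, the 3 NK arrays did not overlap the 3 CDC arrays in 14 members (16.9%), and in 36.9% of all genes. The 3 IKDC arrays did not overlap the 3 CDC arrays in 7 members (8.43%, against 30.3%) or the 3 NK arrays in 5 (6.02%, against 9.92%). These comparisons share arrays and are not independent.

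**Figure D3:**
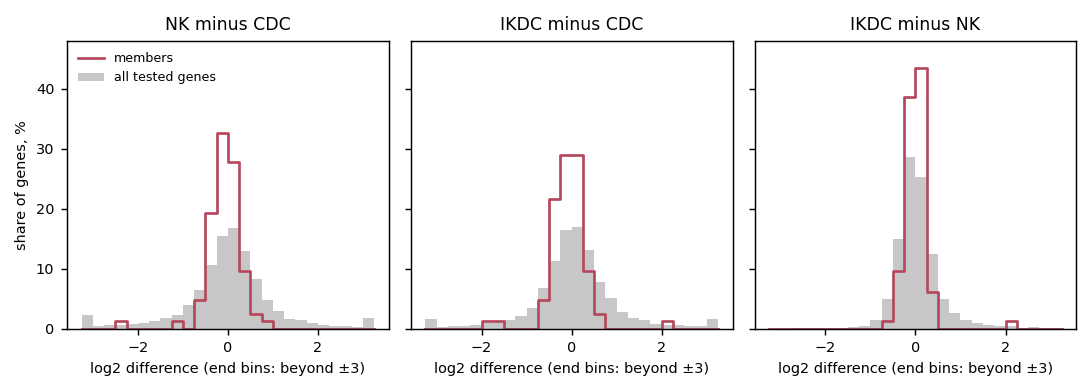
The panels give, for each cell type comparison over both organs, the share of genes in percent by log2 difference in bins of 0.25, with grey bars for all 10916 tested genes and a red line for the 83 members; the end bins hold all differences beyond ±3. Members lie close to 0 in all 3 panels, with a median size of 0.22, 0.22 and 0.15 against 0.43, 0.41 and 0.23 for all genes.

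Ndufa1, a small membrane subunit of complex I encoded on the X chromosome, read 11.93, 11.68 and 11.80 in CDC, 12.08, 12.20 and 12.21 in NK and 12.21, 12.39 and 12.35 in IKDC. The IKDC arrays lay above all CDC arrays, and the difference over both organs was 0.52 ± 0.14 (adjusted p = 0.0322 by limma). It rested on the normalization. On the values as deposited the difference was 0.07 (adjusted p = 0.871), and with arrays shifted to the same 75th percentile it was 0.02 (adjusted p = 0.962).

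Cox6a2 had the largest difference of any member. It is the heart and muscle isoform of complex IV subunit 6a and is also known from plasmacytoid dendritic cells, which make type I interferon. It read 6.21 and 6.30 on the spleen CDC arrays, 7.13 and 6.30 on spleen NK and 7.20 and 7.20 on spleen IKDC. In lymph node it read 7.23 in CDC, 6.38 in NK and 11.43 in IKDC. That array was 18.8-fold above spleen IKDC (4.23 ± 0.41), and the fit assumed that the lone array varied like the spleen arrays. The adjusted p was 0.0585 by limma, and it was 0.0136 with the replicate number as a block. The value of 0.0585 was the smallest in that comparison but was shared with other genes, so it does not rank Cox6a2 first. Its other probe set gave a difference of 4.26. The test of whether the difference between organs was larger in IKDC than in NK gave 4.56 ± 0.59 (adjusted p = 0.454), and against CDC 3.26 ± 0.59 (adjusted p = 0.399). Within spleen, IKDC exceeded NK by 0.48 ± 0.34 (adjusted p = 0.866).

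Markers of plasmacytoid dendritic cells were also highest on the lymph node IKDC array, in 5 of 5 markers, where 6.95% of all tested genes had their highest level there. Siglech, which defines these cells, read 10.78 on that array and 4.79 to 6.51 on the others. Tcf4 read 11.53 there and 8.77 to 10.02 on the others, Bst2 9.42 and 6.12 to 7.35, and Ly6d 6.59 and 3.14 to 4.74. Ccr9 read 11.78 there and 10.37 on the lymph node CDC array. The log2 summed level of the 5 markers was 13.14 on the lymph node IKDC array, 11.25 on lymph node CDC and 9.21 to 10.22 on the others. The part of such cells in the Cox6a2 difference was not tested.

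Lymph node and spleen were compared next. Within CDC, 0 members and 0.0275% of all genes were called, with 3 members and 1386 of all genes at an unadjusted p under 0.05. The median member was 0.32 higher in lymph node, and 57 of 83 were higher, while the median of all genes was -0.02. Complex I had a median of 0.51, with 27 of 33 higher, and complex II a median of -0.20. Atp5md (1.62 ± 0.44, adjusted p = 0.251), Ndufb6 (1.23 ± 0.63) and Ndufb10 (1.22 ± 0.65) differed most upwards and Cox8a (-1.69 ± 0.52, adjusted p = 0.282), Ndufb1 (-0.94 ± 1.19) and Ndufaf5 (-0.73 ± 0.40) most downwards. The median depended on which spleen array the lymph node array was set against. It was 0.09 above spleen CDC array 1 and 0.57 above spleen CDC array 2.

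In NK the median member difference between organs was 0.02, with 0 members and 0% of all genes called by limma (0 and 628 at an unadjusted p under 0.05). Ndufa5 (0.84 ± 0.68), Atp5md (0.72 ± 0.44) and Atp5j2 (0.61 ± 0.68) were the largest upwards, and Cox8a (-1.04 ± 0.52), Uqcr10 (-0.83 ± 0.55) and Uqcrfs1 (-0.55 ± 0.41) the largest downwards. In IKDC the median was 0.16, with 0 members and 0% of all genes called (2 and 744 at an unadjusted p under 0.05). It was -0.28 against spleen IKDC array 1 and 0.60 against array 2. Next to Cox6a2, Ndufa12 (0.89 ± 1.02) and Atp5j2 (0.83 ± 0.68) were largest upwards, and Ndufaf6 (-0.69 ± 0.47), Ndufs4 (-0.60 ± 0.28) and Cox5b (-0.53 ± 0.21) downwards.

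Over the cell types together, 0 members and 0.806% of all genes were called between organs, with 7 members and 1909 of all genes at an unadjusted p under 0.05. The median member was 0.18 higher in lymph node and 56 of 83 were higher, and this median became -0.003 when arrays were shifted to the same 75th percentile. That shift also moved the calls over all genes from 40 higher of 88 to 27 higher of 90. Atp5md (0.99 ± 0.27, adjusted p = 0.122) and Ndufa12 (0.86 ± 0.51) followed Cox6a2 (1.62 ± 0.67), and Cox8a (-0.90 ± 0.35), Ndufb1 (-0.36 ± 0.61) and Atp5g3 (-0.34 ± 0.14) were lowest. The tests of whether a cell type difference depended on the organ called 0 members and 0% of all genes by limma in each of the 3 pairs of cell types (1, 2 and 1 members, and 580, 615 and 302 of all genes, at an unadjusted p under 0.05). Apart from Cox6a2, the largest were Ndufaf4 (1.33), Ndufaf5 (0.67), Cox8a (0.65), Uqcr10 (-1.90) and Ndufb2 (-1.21) for NK against CDC. For IKDC against CDC they were Cox8a (1.73), Ndufb1 (1.21), Atp5g1 (-1.19), Atp5md (-0.97) and Ndufb2 (-0.93). For IKDC against NK they were Uqcr10 (1.65), Cox8a (1.08), Ndufa5 (-0.74), Ndufs4 (-0.68) and Ndufa4 (-0.67).

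Between the spleen arrays of a cell type the members shifted together. Each spleen cell type had an array labelled 1 and an array labelled 2, and the members were mostly lower on array 2. The median difference of array 2 from array 1 was -0.45 over members and 0.00 over all tested genes, and 72 of 83 members were lower. It was -0.51 in CDC, -0.14 in NK and -0.80 in IKDC. In 45 members (54.2%) array 2 was lower in all 3 cell types, which held for 23.2% of all genes. The reverse held for 4 members, Sdha, Sdhd, Ndufaf1 and Ndufaf7, and for 24% of all genes. In 27 members (32.5%) all 3 spleen arrays 2 lay below all 6 other arrays, and in 3.45% of all genes. In 0 members did they lie above, and in 3.55% of all genes. This comparison was added after the data were seen, and the genes named in it were chosen by their values, so it is described without a test.

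The shift was unequal among the classes. It was largest in complex I, with a median of -0.73, 28 of 33 subunits lower and 16 below all 6 other arrays. ATP synthase followed, with a median of -0.45, 16 of 17 lower and 6 below all others. Complex III (8 of 8 lower) and complex IV (13 of 13 lower) both had a median of -0.40. In complex II the median was 0.05, with 2 lower and 2 higher. Ndufa12, an accessory subunit of complex I, read 10.76, 10.45 and 11.23 on spleen arrays 1 (CDC, NK and IKDC), 9.33, 9.66 and 8.82 on arrays 2, and 11.25, 10.54 and 10.91 in lymph node. Ndufb2 read 9.77, 9.55 and 10.17 on arrays 1, 8.11, 8.67 and 8.15 on arrays 2, and 10.07, 9.03 and 9.36 in lymph node. Atp5e, the epsilon subunit of the ATP synthase head, read 10.46, 10.28 and 10.62, then 9.45, 9.29 and 8.75, then 10.52, 10.18 and 10.10. In these 3 genes arrays 2 lay below all others, with differences of -1.54, -1.52 and -1.29.

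Other subunits of the same complexes hardly moved. The difference was -0.004 in Atp5a1, 0.16 in Atp5b, 0.04 in Ndufs1 and 0.06 in Ndufs3. Sdhd was 1.02 higher on array 2 in CDC and 0.89 higher in IKDC, and its NK arrays differed by 0.02. The shift was thus not shared by all subunits of a complex.

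**Figure D4:**
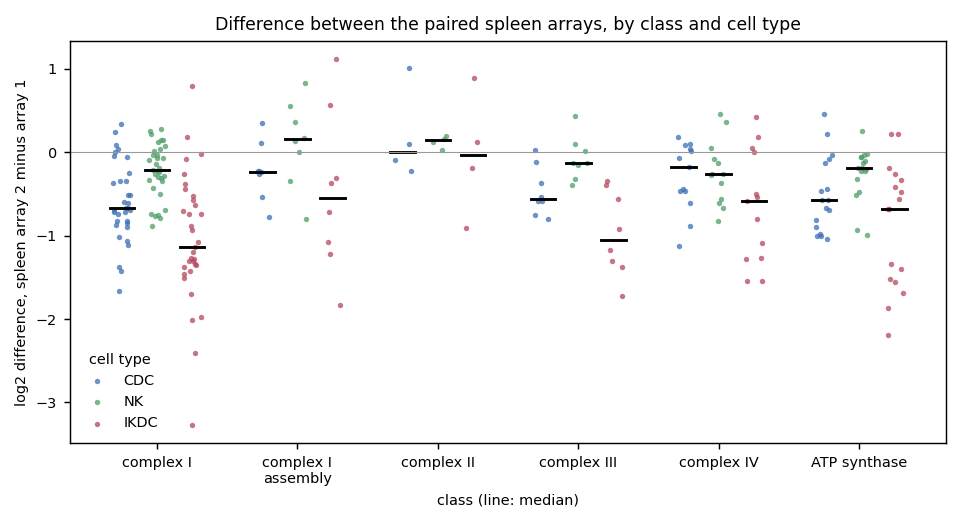
Each point is 1 tested member, giving the log2 level on spleen array 2 minus that on spleen array 1, by class and cell type (blue CDC, green NK, red IKDC), with a line at each median. Complex I lies lowest, with medians of -0.67 in CDC, -0.22 in NK and -1.14 in IKDC, while the 4 complex II genes scatter around 0.

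Several array properties divided the same way. Proliferation genes were lower on spleen arrays 2, with a median of -1.56 over 22 genes, and Mki67, a gene of dividing cells, read 10.97, 11.06 and 11.91 on spleen arrays 1 and 9.35, 8.71 and 9.07 on arrays 2. The BioC spike, a control RNA added to every sample, had a ratio of 3′ to 5′ signal of 0.771 to 0.810 on arrays 1 and 1.13 to 1.22 on arrays 2. The ratio for actin, an RNA of the cells themselves, divided the other way, at 1.69, 2.35 and 3.23 on arrays 1 (CDC, NK and IKDC) and 1.11, 1.62 and 1.24 on arrays 2. The ratio for Gapdh, also an RNA of the cells, did not divide them. It was 4.47, 6.15 and 3.67 on arrays 1 and 3.28, 4.12 and 4.19 on arrays 2, so the IKDC pair went against the others. Sex divided the arrays too. Xist, made by the inactive X chromosome of females, read 6.02 to 6.36 on arrays 1 and 11.43 to 12.48 on arrays 2, and the Y-linked Eif2s3y read 8.84 to 9.40 on arrays 1 and 3.65 to 4.28 on arrays 2. The lymph node arrays did not side with arrays 2 in the members, whose median deviation from their own mean was 0.21, 0.03 and 0.05 there. They were low in proliferation genes (-0.09, -0.88 and -1.08) and like arrays 2 in Xist (12.05 to 12.19) and Eif2s3y (2.76 to 4.01), and had BioC ratios of 0.830 to 0.852, near arrays 1. Their actin ratios were 1.56, 1.39 and 1.89 and their Gapdh ratios 3.23, 2.70 and 2.86. Each organ comparison thus set a lymph node array against spleen arrays of either sex. Sex, cell division, sample preparation and array cannot be told apart for the spleen arrays.

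**Figure D5:**
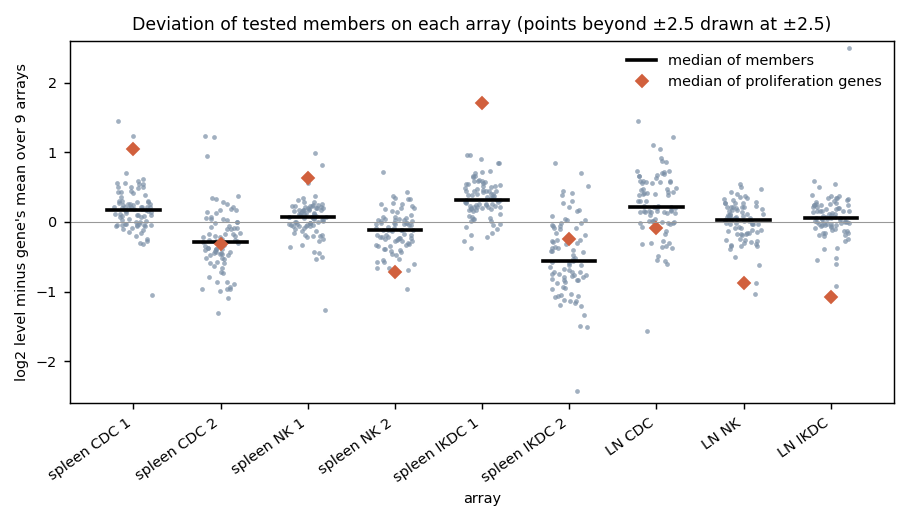
For each array, points give the log2 level of each of the 83 members minus that gene's mean over the 9 arrays, black lines the median of members and diamonds the median of 22 proliferation genes; points beyond ±2.5 are drawn at ±2.5. Member medians are below 0 on the 3 spleen arrays 2 (-0.29, -0.12 and -0.57) and above 0 on the other 6, while the proliferation medians are also below 0 on the 3 lymph node arrays.

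The split bore on the cell type medians. Spleen IKDC array 1 had 74 of 83 members above their own mean and spleen IKDC array 2 had 15. Among arrays 1, the median member was 0.26 higher in IKDC than in NK, with 72 of 83 higher. Among arrays 2 it was -0.30, with 63 of 83 lower, and in lymph node it was 0.04. IKDC minus CDC gave 0.15, -0.20 and -0.21, and NK minus CDC -0.14, 0.15 and -0.20, in the same order. By this median, no cell type stood above or below another in all 3 sets. The replicate SD of members was 0.80 in spleen IKDC, 0.46 in CDC and 0.28 in NK, against 0.66, 0.42 and 0.45 for all genes.

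The promoters of the members were searched for sites of factors known to act on respiratory genes. RefSeq promoters of build GRCm38.p6 were found for 74 of the 90 members, 79 promoters in all, of which the 250 bases before the start were read on both strands. The NRF1 core GCGCATGC was in 10.1% of member promoters and 2.26% of all 32851 promoters of the table, and the ETS site CCGGAAG, bound by GABP, in 17.7% and 6.91%. The YY1 site AAGATGGC was in 1.27% and 1.56%, and the ERR site TCAAGGTCA in 1.27% and 0.387%. Matches to different motifs overlapped in 0 member promoters. A match is a description of letters. The 14 tested members with the ETS site had a median difference between spleen arrays 2 and 1 of -0.53, and the 55 without it -0.45. The 8 with the NRF1 core had -0.78, and the 61 without it -0.45. The promoters below are examples chosen after the values were seen, read 5′ to 3′ on the gene's strand with matches to NRF1 and ETS in capitals. They are not the most extreme members in order, and Ndufv2 (-1.11), for instance, is not shown. Ndufb2 (-1.52, chr6:39592315-39592564, plus strand) has no match, Atp5e (-1.29, chr2:174464102-174464351, minus strand) an ETS match, Atp5l, a membrane subunit of ATP synthase (-1.06, chr9:44920743-44920992, minus strand), an NRF1 and an ETS match, and Sdhd (0.64, chr9:50603850-50604099, minus strand) an ETS match.
Ndufb2: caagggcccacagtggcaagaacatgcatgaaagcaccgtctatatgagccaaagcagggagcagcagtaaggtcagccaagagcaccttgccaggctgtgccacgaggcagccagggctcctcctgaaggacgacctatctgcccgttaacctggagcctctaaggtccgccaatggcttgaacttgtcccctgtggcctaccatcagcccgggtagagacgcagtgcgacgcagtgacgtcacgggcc
Atp5e: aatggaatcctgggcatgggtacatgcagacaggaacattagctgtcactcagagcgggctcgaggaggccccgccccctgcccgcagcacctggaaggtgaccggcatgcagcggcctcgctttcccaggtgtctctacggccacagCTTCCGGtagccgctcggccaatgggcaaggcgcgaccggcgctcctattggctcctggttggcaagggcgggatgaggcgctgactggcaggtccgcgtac
Atp5l: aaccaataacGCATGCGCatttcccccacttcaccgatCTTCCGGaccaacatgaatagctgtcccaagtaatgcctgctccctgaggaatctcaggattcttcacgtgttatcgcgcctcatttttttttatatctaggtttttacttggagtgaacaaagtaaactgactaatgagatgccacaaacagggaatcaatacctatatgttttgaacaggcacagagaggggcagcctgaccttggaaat
Sdhd: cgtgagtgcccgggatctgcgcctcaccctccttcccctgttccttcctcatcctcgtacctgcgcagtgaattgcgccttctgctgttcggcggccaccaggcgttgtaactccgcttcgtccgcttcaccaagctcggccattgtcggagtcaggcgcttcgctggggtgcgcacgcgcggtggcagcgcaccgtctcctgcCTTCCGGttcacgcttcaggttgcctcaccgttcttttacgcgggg
Of the promoters shown, those of Atp5e, Atp5l and Sdhd hold the ETS letters. The part of any of these sites in the difference between spleen arrays was not tested.

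Genes around the respiratory chain were read from lists. Of 76 mitochondrial ribosome genes, which make the subunits encoded in mitochondrial DNA, 1 was called higher (Mrpl9, 1.33 ± 0.28, adjusted p = 0.0269 by limma) and 1 lower (Mrps27, -1.54 ± 0.32, adjusted p = 0.0260) in spleen NK than in CDC, and 0 in spleen IKDC. The list median was -0.16 in NK and -0.16 in IKDC. Over both organs 1 was called higher and 4 lower in NK, and 2 lower in IKDC, where 22% and 17.4% of all tested genes were called, so these counts lay below the background. Between spleen arrays 2 and 1 the list had a median of -0.41, with 64 of 76 lower, close to the members.

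Of 35 tested assembly factors outside the name rule, Nubpl, which inserts iron-sulfur clusters into complex I, was called lower in spleen NK than in CDC (-1.34 ± 0.34, adjusted p = 0.0491 by limma). It read 7.71, 8.07 and 7.42 in CDC and 6.49, 6.61 and 6.86 in NK. Over both organs Nubpl (-1.08) remained lower and Higd1a, an inner membrane protein linked to complex IV, was higher in NK (1.62 ± 0.40, adjusted p = 0.0190). The 22 import genes (Timm and Tomm) had 0 calls in the spleen comparisons. Of 13 electron carrier and membrane carrier genes, Coq3 of coenzyme Q synthesis was called lower in spleen NK (-1.14 ± 0.28, adjusted p = 0.043 by limma), and Coq2 and Coq3 over both organs. Between NK and CDC, 13.5% of all tested genes were called in spleen and 22% over both organs, so the counts of these lists lay below the background.

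A further list joined the citrate cycle, which feeds NADH and succinate to complexes I and II, with enzymes that act on pyruvate. Of its 17 tested genes, 1 passed in spleen NK and 2 in spleen IKDC, where 13.5% and 10.3% of all tested genes did. Idh2, the mitochondrial NADP-dependent isocitrate dehydrogenase, read 8.96, 9.56 and 9.09 in CDC, 7.26, 8.01 and 7.43 in NK and 6.98, 7.69 and 8.10 in IKDC. It was called lower in spleen NK (-1.62 ± 0.41, adjusted p = 0.0482 by limma) and in spleen IKDC (-1.92 ± 0.41, adjusted p = 0.0328). Pdha1, a subunit of pyruvate dehydrogenase, read 9.21, 9.04 and 8.56 in CDC, 10.15, 9.95 and 9.98 in NK and 10.16, 10.44 and 9.76 in IKDC. It rose in spleen IKDC (1.18 ± 0.24, adjusted p = 0.0285), and over both organs in NK (1.09 ± 0.20, adjusted p = 0.00413) and in IKDC (1.18 ± 0.20, adjusted p = 0.00337). Over both organs citrate synthase Cs (-0.81) and fumarase Fh1 (-0.83) were also called lower in NK. Of the 17 genes, 1 was called higher and 3 lower in NK there, and 1 higher and 1 lower in IKDC. The shares of all tested genes called were 22% and 17.4%.

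Among 13 tested regulators of mitochondrial biogenesis, Ppargc1b was called higher in spleen NK and IKDC than in spleen CDC (adjusted p = 0.00141 and 0.00292 by limma). It encodes PGC-1beta, a coactivator of respiratory genes. It read 7.10 and 7.30 in spleen NK, 7.03 and 6.73 in spleen IKDC, and 4.16 and 3.96 in spleen CDC, below the filter level. Set against that level, it was at least 3.71-fold higher in NK and at least 2.98-fold higher in IKDC. On the lymph node CDC array it read 7.46, as high as in the other cells. Tfam, which packages and transcribes mitochondrial DNA, rose over both organs in NK (0.99 ± 0.20, adjusted p = 0.00781) and in IKDC (1.04 ± 0.20, adjusted p = 0.00725). It read 8.46, 8.72 and 7.81 in CDC, 9.50, 9.30 and 9.17 in NK and 9.51, 9.47 and 9.14 in IKDC. Gabpb1, a subunit of GABP, rose over both organs in NK (0.96 ± 0.25, adjusted p = 0.0245). With Ppargc1b, 3 of the 13 were called over both organs in NK and 1 in IKDC, where 22% and 17.4% of all tested genes were. In spleen 1 of the 13 was called in NK and 1 in IKDC, where 13.5% and 10.3% of all tested genes were. These counts thus lay near or below the background. Between NK and CDC over both organs the 83 members had a median difference of -0.03.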

How the data were processed

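The deposited values are linear intensity per probe set. The mean between the 2nd and 98th percentiles of each array was 149.951 to 149.963, and a common scaling was inferred from this. The scaling and its software are not stated in the sources used. Per the labels, RNA was extracted with TRIzol and RNeasy and labelled from 6 µg. An offset of 6.49, the 20th percentile of all values, was added, and log2 values were quantile normalized. Of 45101 probe sets, 64 controls, 932 with several symbols and 9160 with none were left out; each gene was read from its brightest probe set on average. Genes whose mean reached the 40th percentile (5.31) were tested with limma 3.58.1 in R 4.3.3 (lmFit, eBayes with trend, two-sided, Benjamini-Hochberg). The fit of 6 groups left 3 residual degrees of freedom, from the spleen pairs, and had 3.44 prior ones; the fit over both organs, cell type plus organ, had 5 and 4.05. The number of arrays limits the precision. The procedure was tested on simulated data. Python 3.11.15 and matplotlib 3.10.9 were used for promoters and figures.

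The members, lists and comparisons were chosen with earlier results of these data known. Named genes were a fixed set of subunits, the members called with the largest differences, and, where none was called, the 3 largest differences in each direction; others were named after their values were seen. Alternatives changed the scaling, offset, filter, probe set summary, symbols, variance trend and replicate block, and left out each spleen array.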

Additional observations from a re-analysis of the deposited data

How the results depend on the processing

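Under the alternatives, 509 results stayed the same, 31 moved, 12 lost a call and 7 gained one. A count of called members moved if it changed to or from 0, or by more than a set ratio. A member median moved if it shifted by at least its replicate SD of 0.415. A difference of a single gene stayed the same if it kept its direction and side of the threshold. No called difference changed sign, but uncalled medians did; the cause of the changes below was not tested. The number of members called between spleen NK and CDC (1) was 0 with the 60th percentile filter, which leaves Ndufaf6 untested, and 0 to 2 when 1 spleen array was left out. For spleen IKDC and CDC (0) it was 1 with an offset of 32, the mean of all probe sets, no trend or the replicate block, and 0 to 3 without 1 array. Over both organs, NK and CDC (1) gave 0 with the 60th percentile filter and 1 to 3 without 1 array. IKDC and CDC (2) gave 1 on values as deposited, with the 75th percentile shift, no filter, the 60th percentile filter, no trend or without the lymph node IKDC array (added after the data were seen), and 1 to 5 without 1 spleen array. Lymph node against spleen IKDC (0) gave 1, Cox6a2, with an offset of 32, the 60th percentile filter or the replicate block, and organ over cell types (0) gave 1 with the block.

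Leaving out 1 spleen array moved the member median between spleen IKDC and NK from -0.445 to 0.362, between lymph node and spleen IKDC from -0.276 to 0.601, and in the organ test of IKDC minus CDC from -0.614 to 0.210. Ndufaf6 was called in 13 of 16 alternatives in spleen NK (adjusted p by limma 0.00825 to 0.0986), in 4 of 16 in spleen IKDC (0.0331 to 0.237) and in 16 of 16 over both organs in NK and in IKDC. Ndufa1 was called in 8 of 17. The difference between spleen arrays 2 and 1 had a member median of -0.593 as deposited, -0.652 with the 75th percentile shift and -0.346 without the IKDC pair. The labels do not say that a replicate number marks a shared sort. Same-numbered arrays nevertheless deviated alike across the 10916 genes, which are not independent replicates (r = 0.412, 0.529 and 0.485 for the 3 pairs of cell types). With the number as a block, limma called 2314 genes between spleen NK and CDC and 1884 between spleen IKDC and CDC, where 1475 and 1124 were called without it. Between organs it called 173 in CDC, 15 in NK, 126 in IKDC and 343 over cell types, against 3, 0, 0 and 88.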

Other observations

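Of the probe sets that match a member and another gene, 10 in all, these gave the following log2 levels over the 9 arrays. The probe set of Ndufs6 and its copy Ndufs6b read 9.45 to 10.40, and that of Ndufa11 and Ndufa11b 8.13 to 9.50. The probe set shared by Ndufab1 and its pseudogene read 8.82 to 10.65, and that of Ndufs5 and its pseudogene 7.52 to 8.64. Their differences between spleen arrays 2 and 1 were -0.59, -0.84, -1.06 and -0.69. In the other 6 the differences were smaller or the levels lower. The 2 sets of Ndufb4 and its copies gave -0.40 and -0.07, a dimmer set of Ndufa11 and Ndufa11b 0.10, a set of Ndufb2 and Adck2 -0.14, and 2 sets of Ndufa13 and Yjefn3, both below the filter level of 5.31, 0.07 and -0.65.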
